A study of Drosophila melanogaster with 3 samples.

Results

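Binding of the Drosophila melanogaster protein CG8159, known here only by its gene number, was mapped by chromatin immunoprecipitation followed by sequencing (ChIP-seq). The sites described here are the summits that lie at the start of a noncoding RNA gene and at no protein-coding start. A summit is the base of highest signal within a peak. It was kept if it lay within 500 bp of a transcription start site of a gene that does not encode a protein and more than 500 bp from every protein-coding start site. Of the 10239 summits in the list that the irreproducible discovery rate (IDR) procedure retained, 290 met this rule (2.83%, 95% Wilson interval 2.53 to 3.17). The interval covers counting error only. Another 2904 summits lay at protein-coding starts, 157 of them also within 500 bp of a noncoding start, and 7045 lay more than 500 bp from every start.

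All 3 samples were biological replicates of the same condition: whole pupae aged 24 hours, males and females pooled, from a single transgenic fly line carrying CG8159 with GFP joined to its C terminus. Chromatin was precipitated with an anti-GFP antibody per the sample description, although the antibody label names CG8159. With no second genotype, age or tissue, every comparison is between kinds of genomic sequence or between replicates, and whole pupae mix many cell types. The lists give no read numbers, so the depth is unknown. Each replicate was represented by its 10239 strongest peaks, in which 308, 305 and 297 summits met the rule (2.96% ± 0.0555, SD, n = 3). With 3 replicates, an exact 2-sided sign-flip permutation test over replicates cannot give a p below 0.25, and every p printed here is of that kind.

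Noncoding RNA genes fall into groups with different machinery. Long noncoding RNAs (lncRNAs), antisense RNAs and most microRNA precursors are made by RNA polymerase II, while tRNAs, 7SK RNA and RNase MRP RNA are made by RNA polymerase III. At a promoter, polymerase and its general factors assemble around the start site, and sequence-specific factors commonly bind just upstream. Many microRNAs and small nucleolar RNAs are cut from longer transcripts, so their annotated first base marks the processed RNA and not the place where transcription begins.

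The sequence at 10 of these summits is printed first, because most members were richer in A and T at the summit than beside it. That held for 242 of the 290 members, and for 85.0% of all IDR summits. Shown are the 6 strongest sites, which lie outside protein-coding exons, then 4 at well-known RNAs of different classes. Each window runs 50 bases to either side of the summit on the plus strand of dm6 and was read from the RefSeq release 6 assembly. Capitals mark the TATA-box word TATAAA, and the A/T words AAAATAT, known only by its letters, TTAAAAA and likewise TACTTAA, on either strand. Adjoining capitals can belong to matches that overlap.
lncRNA:CR45424, chr3L:3245302-3245402: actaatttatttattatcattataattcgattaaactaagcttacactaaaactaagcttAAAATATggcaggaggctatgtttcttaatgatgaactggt
lncRNA:CR44619, chrX:12752310-12752410: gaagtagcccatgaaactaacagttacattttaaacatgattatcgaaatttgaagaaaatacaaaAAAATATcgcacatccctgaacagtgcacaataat
lncRNA:CR31044, chr3R:29214394-29214494: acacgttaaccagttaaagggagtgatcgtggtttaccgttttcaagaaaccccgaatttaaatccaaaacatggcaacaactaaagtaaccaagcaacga
lncRNA:CR46102, chr3R:25738127-25738227: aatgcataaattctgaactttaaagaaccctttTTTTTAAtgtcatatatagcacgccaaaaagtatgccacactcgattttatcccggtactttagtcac
lncRNA:CR46036, chr3R:17700530-17700630: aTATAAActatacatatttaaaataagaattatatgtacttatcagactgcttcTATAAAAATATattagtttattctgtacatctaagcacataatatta
lncRNA:CR45595, chr3R:11780264-11780364: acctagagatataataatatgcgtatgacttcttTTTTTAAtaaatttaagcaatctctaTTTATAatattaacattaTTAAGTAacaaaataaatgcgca
lncRNA:Hsromega, chr3R:21296266-21296366: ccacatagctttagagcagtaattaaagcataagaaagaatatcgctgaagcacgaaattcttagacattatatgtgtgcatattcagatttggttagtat
tRNA:Gln-TTG-2-1, chrX:3427692-3427792: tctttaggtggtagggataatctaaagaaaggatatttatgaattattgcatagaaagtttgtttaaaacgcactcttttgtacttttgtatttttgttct
mir-276a, chr3L:10365045-10365145: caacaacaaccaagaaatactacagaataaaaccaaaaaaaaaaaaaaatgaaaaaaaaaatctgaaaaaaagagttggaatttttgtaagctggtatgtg
snRNA:7SKa, chr3R:7474717-7474817: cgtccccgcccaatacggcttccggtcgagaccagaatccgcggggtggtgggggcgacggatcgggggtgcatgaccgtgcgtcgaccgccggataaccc

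At CR45424 the window was 73.3% A or T, against 49.0% in windows of the same length centred 300 bp to either side. CR46036 held 81.2% A or T and CR45595 held 79.2%, each with 3 word matches. The window at 7SKa, the small nuclear RNA that holds the elongation factor P-TEFb in an inactive complex, lay inside the gene and was the exception, with 29.7% A or T against 66.3% beside it. That was the lowest A/T content of all 290 windows.

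The strongest site lay at the lncRNA CR45424 on 3L (peak chr3L:3245037-3245677), 356 bp downstream of an annotated start within the gene. The closest protein-coding start, that of CG12078, was 1058 bp away. The summit, at base 3245352, was just beyond the last base of CR45424, 3245340. The site's signal in the IDR list was 8853 in the authors' units. Because signal scales differ between lists, each replicate's value is given as relative signal, the peak's signal divided by the median over the 10239 strongest peaks of that replicate. At CR45424 the relative signal was 18.6, 14.2 and 15.1 in replicates 1, 2 and 3 (15.9 ± 2.33, SD, n = 3). All 3 libraries thus placed it far above their typical strong peak, with replicate 1 the highest.

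CR44619 on X followed (chrX:12752130-12752586), with a signal of 8833 and a relative signal of 14.7, 17.3 and 17.4 in replicates 1, 2 and 3. Its summit lay 493 bp downstream of the CR44619 start, close to the 500-bp limit. At CR31044 on 3R (chr3R:29214212-29214626) the summit was 118 bp upstream of the start, and the relative signal was 13.8, 18.5 and 14.7. CR31044 is the annotated transcript that contains the mir-279 precursor on the same strand. These 3 sites overlapped in relative signal across replicates, so their order is not fixed.

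Next came CR46102 inside LpR2, a lipophorin receptor gene, with a relative signal of 10.8, 13.5 and 13.1. CR46036 and CR46035 lie inside osa, which encodes a subunit of the Brahma chromatin-remodelling complex. Their relative signals were 10.7, 11.4 and 12.4 at CR46036 and 7.98, 7.83 and 10.1 at CR46035, with the 2 summits 2890 bp apart. Both sites were highest in replicate 3, and the lower site did not reach the upper one in any replicate.

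The 20 strongest members comprised 19 lncRNAs and 1 antisense RNA, while lncRNAs made up 81.0% of all 290 members. All 20 were overlapped by strong peaks of all 3 replicates, against 79.3% of all members and 78.3% of all IDR peaks. The 20 were picked by signal and only strong replicate peaks count, so that overlap was nearly fixed by the choice. The mean relative signal of the 20 ran from 16.5 at CR44619 down to 5.29 at CR45997, and the lowest single replicate value was 4.07. Several lay near regulatory protein-coding genes while staying more than 500 bp from their starts. CR44742 lay 1199 bp from the start of vri, a bZIP repressor of the circadian clock, with a relative signal of 7.34, 7.40 and 7.72. CR45243 lay 1459 bp from the start of fng, a glycosyltransferase that modifies Notch, with 8.50, 6.51 and 9.09. CR45808 was inside Hipk, which encodes a nuclear protein kinase, with 5.45, 7.10 and 5.97. The values at vri were nearly level across replicates, while those at fng dipped in replicate 2.

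The remaining sites of the 20 were at CR45595, CR43626, CR44339, CR44676, CR45668, asRNA:CR46145, CR45541, CR44867, Hsromega and CR45325. CR43626, in an exon of the protein-coding gene CG43389, varied more than its neighbours in rank, with 11.1, 7.01 and 10.97. CR44339 lay 4224 bp from the start of Psc, a Polycomb group gene, and CR45668 lay 668 bp from the start of Act5C, which encodes a cytoplasmic actin. CR45541 lay 1742 bp from the start of the hexokinase gene Hex-A. The antisense RNA CR46145 carried its summit 8 bp downstream of its start, inside the tyrosine kinase gene FER, with 5.33, 7.10 and 5.89. CR45997 inside mbl, the muscleblind splicing-factor gene, was the nearest noncoding gene of 3 members.

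**Figure D1:**
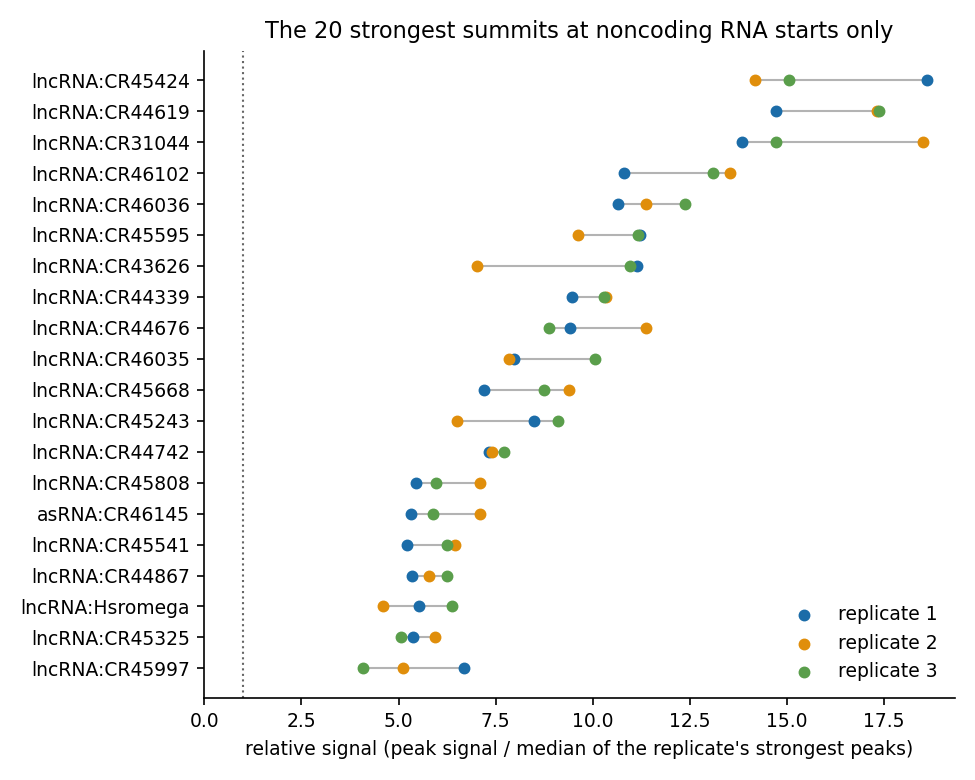
Relative signal (horizontal axis, peak signal divided by the median of the replicate's 10239 strongest peaks) of the 20 strongest summits at noncoding starts only, in order of IDR signal. Points are the 3 replicates, grey lines join their lowest and highest value, and the dotted line marks a typical strong peak at 1; no replicate value lies below 4.07.

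By class, lncRNA genes were nearest to 235 of the 290 summits (81.0%). Antisense RNA genes accounted for 16, tRNA genes for 13, pseudogenes for 5 and snoRNA genes for 4. MicroRNA loci accounted for 13, of which 8 were nearest to a precursor and 5 to an annotated mature product. The last 4 were sisRNA:4 (a stable intronic sequence RNA), RNase MRP RNA, the stem-bulge RNA sbRNA:1 and 7SKa. No summit lay at any of the 99 rRNA genes on the 6 arms, which offered only 0.0379 Mb of qualifying sequence. How reads that match several places were handled is not given, so absence of binding there cannot be read from this.

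Counted as genes, 315 of 4219 noncoding genes (7.47%) had at least 1 such summit within 500 bp of a start. Including summits shared with a protein-coding start, 462 were occupied (11.0%, against 22.9% of protein-coding genes). Within classes the summits reached 226 of 1944 lncRNA genes (11.6%), 23 of 290 tRNA genes (7.93%), 14 of 260 microRNA precursors (5.38%) and 16 of 503 antisense RNA genes (3.18%). The share was 1.87% for pseudogenes (5 of 268) and 1.49% for snoRNA genes (4 of 269). In the replicates lncRNA genes were reached 231, 230 and 226 times and snoRNA genes 4, 6 and 5 times. A summit could reach more than 1 gene: 256 lay within 500 bp of a single noncoding gene and 34 of more, up to 4.

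Shares of genes depend on how much start-proximal sequence each class has away from protein-coding starts, so summits were also counted per megabase of qualifying sequence nearest to each class. For lncRNAs the density was 142 per Mb (151, 148 and 144 in replicates 1, 2 and 3). MicroRNA precursors had 86.4 per Mb (75.6, 97.2 and 97.2) and the separate mature microRNA entries 48.2 per Mb (57.8, 57.8 and 38.6). For tRNAs it was 69.1 per Mb (69.1, 53.2 and 53.2). Antisense RNAs had 48.5 per Mb (54.5, 66.7 and 69.7), snoRNAs 31.1 and pseudogenes 23.8. In every replicate the lncRNA density was above those of all other classes. The precursor values were above those of tRNAs and antisense RNAs, which overlapped each other and the mature microRNA entries. All 8 precursor members were upstream of the nearest start and all 5 mature-entry members downstream. Neither density therefore stands for whole microRNA loci, and no order of those against tRNAs and antisense RNAs is given. The classes also differ in setting: 27.0% of the lncRNA sequence lies inside a protein-coding gene, against 86.7% of the antisense RNA sequence and 85.0% of the snoRNA sequence. The part of that difference in the class order was not tested.

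MicroRNAs base-pair with messenger RNAs mainly through bases 2 to 8, the seed. The 13 microRNA members belonged to 13 loci, 8 with the summit upstream of the precursor's first base and 5 downstream of it. The mature products of the 4 strongest members nearest to a precursor and of bantam follow, read 5′ to 3′ from the same assembly at the Ensembl coordinates, with the seed in capitals and RA and RB as the annotation's names for the products of one precursor. They show which RNAs these loci encode.
mir-276a-RA: cAGCGAGGuauagaguuccuacg
mir-276a-RB: uAGGAACUucauaccgugcucu
mir-2491-RA: cGCUGUUGccuuugcaguugcu
mir-2491-RB: cAACAACAgcagcagcaa
mir-275-RA: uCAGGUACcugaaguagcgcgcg
mir-275-RB: cGCGCUAAucagugaccggggcu
mir-279-RA: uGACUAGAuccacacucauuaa
mir-279-RB: aGUGGGUGgggguccaguguuucaca
mir-ban-RA: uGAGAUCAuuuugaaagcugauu
mir-ban-RB: cCGGUUUUcgauuugguuugacu

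No seed was shared between any of the mature products read at these loci. Those of mir-280 and mir-4967 were not read, and so few loci cannot show whether summits favour a seed family. At mir-276a (precursor chr3L:10365228-10365325) the summit was 133 bp upstream of the precursor, 47723 bp from the closest protein-coding start. Its relative signal was 2.35, 2.42 and 1.72. The lncRNA CR46006 carried a further member 1115 bp upstream of the mir-276a summit. The summit at mir-2491, inside the protein-coding genes CG42346 and fog, lay 147 bp upstream of the precursor with 1.25, 1.58 and 1.73. At mir-275 the distance was 455 bp and the relative signal 0.990, 1.49 and 1.26.

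For mir-279, a microRNA known for limiting the formation of CO2-sensing neurons, the summit was 309 bp upstream of the precursor with 1.00, 1.28 and 0.735. That summit lay 832 bp from the much stronger site at the start of its host transcript CR31044 described above. Bantam, a growth-promoting and anti-apoptotic microRNA, had its summit 483 bp downstream of the precursor's first base, with 1.22, 1.45 and 1.44. The strongest of the 13 was at mir-9377 inside Tis11, a gene for a zinc-finger protein of mRNA decay, 450 bp downstream of the precursor start, with 3.38, 3.19 and 3.81. The mir-92b summit lay in an exon of its host gene jigr1 with 1.10, 1.57 and 1.33. Strong peaks of all 3 replicates overlapped 11 of the 13 members, against 78.3% of all IDR peaks.

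The tRNA members were mostly weak: their median signal was 325, against 579 for lncRNA members. The strongest, tRNA:Gln-TTG-2-1, had its summit 219 bp upstream of the gene, outside the transcribed part, with a relative signal of 3.42, 4.30 and 3.80. It was followed by Lys-TTT-1-1 with 2.49, 2.42 and 2.23, Pro-AGG-1-2 with 1.60, 1.94 and 1.91 and Arg-TCG-3-4 with 1.68, 2.21 and 1.75. Their summits were 317 bp downstream, 359 bp upstream and 396 bp downstream of the tRNA start, so all 4 lay over 200 bp away from it. The internal B-box core GGTTCGA of tRNA genes was in 2 of the 290 windows (0.690%), against 0.459% of all IDR windows.

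Among 16 characterised lncRNAs looked up by name, 13 matched the annotation and 2 carried a summit. Hsromega, the heat-shock lncRNA that organises omega speckles, had its summit 189 bp downstream of a start (chr3R:21296113-21296517) with a signal of 2989 and a relative signal of 5.52, 4.61 and 6.36. The flam transcript, source of piRNAs that silence gypsy-family elements in ovarian follicle cells, had a summit 203 bp upstream with 1.19, 1.35 and 1.61. Hsromega was above flam in every replicate. At the other 11 no IDR summit came within 500 bp. For the dosage compensation RNAs roX1 and roX2 the nearest summits were 3590 and 1406 bp away, for let7C, the precursor transcript of the let-7 complex, 557 bp, and for the Hox-cluster transcript bxd 1394 bp.

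Of 36 small housekeeping RNA genes, 2 carried a summit, both of RNA polymerase III transcripts. These were 7SKa, with 0.785, 0.946 and 0.764, and RNase MRP RNA, an enzyme component of ribosomal RNA processing, with 0.623, 0.457 and 0.472. All 6 values were below 1, and both summits lay inside the RNA gene, 229 and 207 bp from its start. None of the spliceosomal RNA genes in the list carried a summit within 500 bp. Several of them are present in more than 1 copy, where the handling of reads is likewise unknown. Of 7 snoRNA host genes, Uhg5 and Uhg8 were near summits shared with a protein-coding start and the other 5 near none, and none of the 3 let-7 complex microRNAs had a summit. Against the 7.47% of all noncoding genes reached, these lists are too small for more than a description.

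Antisense RNAs are read from the strand opposite to a protein-coding gene. Of the 16 antisense members, 12 had the summit upstream of the antisense start (95% Wilson interval 50.5 to 89.8%). After CR46145 the strongest was CR44429 inside gce, which encodes a juvenile hormone receptor, 254 bp upstream of the antisense start with a relative signal of 3.60, 4.04 and 5.30. CR45908 inside CG1943 followed with 3.58, 4.65 and 4.32, and CR43426 near CG32462 with 4.24, 3.13 and 2.37. These 3 overlapped across replicates.

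Among the 5 pseudogene members only CR42490 was strong, with 4.48, 3.86 and 4.22 and its summit 114 bp downstream of the start. CR43972 had 1.02, 0.953 and 1.08, and the weaker 3 had IDR signals between 281 and 458. Of the 3 members in the class of other noncoding RNAs, sisRNA:4 inside dpn, a bHLH repressor gene of neural stem cells, had 3.43, 4.26 and 3.56. All 4 snoRNA members were weak, with IDR signals of 288 to 376, the highest at Psi18S-176 with 0.801, 0.511 and 0.669.

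Summit density was compared between kinds of sequence to ask how the noncoding starts stand against the rest of the genome. Qualifying noncoding sequence, 2.81 Mb in all, held 103 summits per Mb (110, 109 and 106 in replicates 1, 2 and 3). Protein-coding starts held 189 per Mb (207, 194 and 185) and sequence over 500 bp from every start held 60.9 per Mb (58.3, 60.1 and 61.4). In each replicate the noncoding starts lay between the other 2 kinds without overlap. The noncoding density was 1.80 ± 0.0795 times that away from starts (SD, n = 3, exact permutation p = 0.25) and 0.553 ± 0.0224 times that of protein-coding starts (exact permutation p = 0.25). Since coding sequence held few summits, it was also left out of both zones, which gave a ratio to sequence away from starts of 1.67 ± 0.0740.

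The noncoding starts that lie inside a protein-coding gene were compared with those outside, with coding sequence left out of every zone. Outside protein-coding genes the density was 126 per Mb (131, 129 and 129), and inside it was 92.5 per Mb (101.5, 101.5 and 93.7). The inside to outside ratio was 0.764 ± 0.0317 (n = 3, exact permutation p = 0.25). Away from starts the order was the other way around, with 79.0 per Mb inside genes and 62.3 outside (replicates 78.1 ± 1.52 and 60.9 ± 2.51, SD, ratio 1.28 ± 0.0330, exact permutation p = 0.25). With coding sequence kept in both zones the ratio away from starts was 0.978 ± 0.0253, so that reversal holds only without coding sequence, while at noncoding starts the ratio was 0.598 ± 0.0272.

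Noncoding starts were denser than sequence away from starts in both settings. Outside protein-coding genes they were 2.13 ± 0.113 times as dense, and inside them 1.27 ± 0.0805 times with coding sequence left out and 1.30 ± 0.0851 times with it kept (SD, n = 3, exact permutation p = 0.25 for each).

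**Figure D2:**
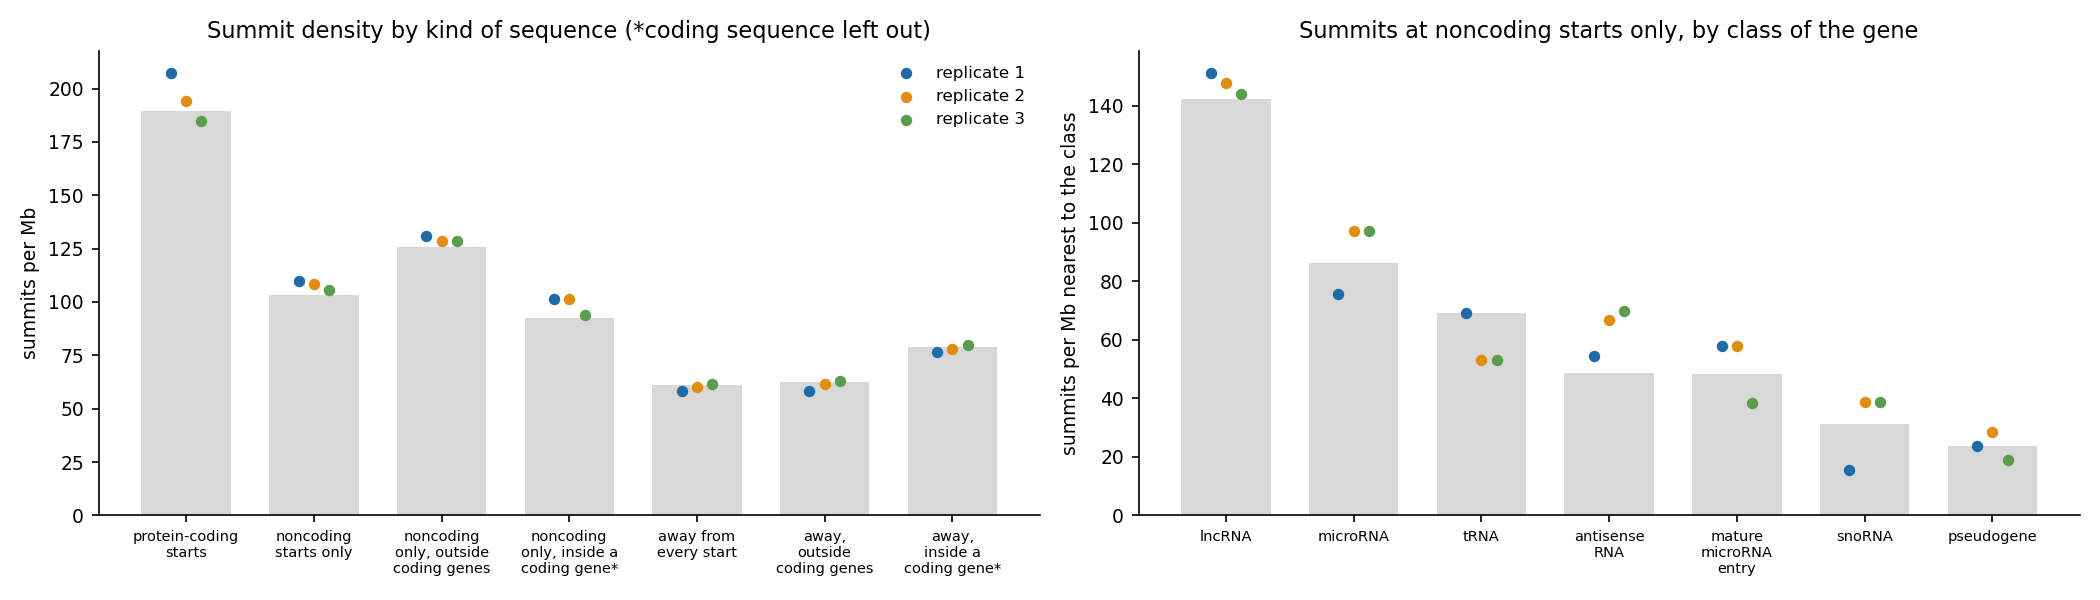
Summits per Mb (vertical axes) by kind of sequence (left) and, for summits at noncoding starts only, by class of the nearest noncoding gene, for classes with at least 4 members (right). Bars are the IDR list and points the 3 replicates; noncoding starts outside protein-coding genes sit at 126 per Mb and those inside, with coding sequence left out, at 92.5, and lncRNA starts at 142 per Mb stand above the other classes.

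As counts, 83 of the 290 summits (28.6%, 23.7 to 34.1) lay inside the span of a protein-coding gene, against 41.4% of the qualifying bases, or 35.2% of those outside coding sequence. The replicates gave 29.7% ± 0.954. Of all IDR summits 60.8% lay inside such a span, and of those away from every start 66.0%. Of the 82 whose host genes lie on a single strand, 56 had the noncoding gene on the opposite strand (68.3%, 57.6 to 77.4), against 56.8% of the bases. In an exon of a protein-coding gene, which makes up 14.4% of the bases, fell 6 summits (2.07%). Such exons held 777 of all 10239 IDR summits and 151 of the 7045 away from every start. None fell in coding sequence, which makes up 9.46% of the bases, and a count of 0 of 290 allows a share of up to 1.03% when the limit is set at 3 counts (Wilson upper limit 1.31%). The replicates had 1, 2 and 1 summits in coding sequence. Summits in coding sequence were few in the whole IDR list too, 49 of 10239, and 15 of the 7045 away from every start.

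Distance from protein-coding starts varied widely, with a median of 3411.5 bp (quartiles 1671 and 8080, range 513 to 58882). At 501 to 1000 bp from a protein-coding start the noncoding starts held 79.6 summits per Mb in the IDR list. Sequence away from noncoding starts at the same distance held 73.4 per Mb, a ratio of 1.08. The replicates stood farther apart, with 86.8, 98.8 and 94.0 per Mb at noncoding starts (ratio over replicates 1.29 ± 0.0800, SD). At 1001 to 2000 bp the values were 109 and 67.2 per Mb (1.63 ± 0.0811), at 2001 to 5000 bp 115 and 65.4 per Mb (1.96 ± 0.0696), and at 5001 to 10000 bp 104 and 71.8 per Mb (1.43 ± 0.173). Beyond 10000 bp they were 99.2 and 45.5 per Mb (2.25 ± 0.0847), and 60 of the 290 summits lay there. The noncoding starts were denser than their surroundings in every distance class, and the ratio did not rise steadily with distance.

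Position around the start showed a maximum upstream, a low just downstream and a rise towards the downstream limit. Of the 289 summits not on the start base itself, 174 were upstream (60.2%, 54.5 to 65.7), against 48.6% of the bases. The replicates had 57.7, 59.3 and 60.5% upstream. At protein-coding starts 76.5% were upstream, and the difference was −17.7 ± 1.06 percentage points over replicates (SD, n = 3, exact permutation p = 0.25). It was −16.3 points in the IDR list, and −4.60 when both kinds of start were limited to 250 bp. The share of bases upstream was not computed for protein-coding starts, so this difference compares shares of summits only. In the IDR list the fullest 100-bp bin was 200 to 100 bp upstream, with 50 summits and 174 per Mb (167, 178 and 153 in the replicates). Replicate 3 was denser in the neighbouring bin, at 165 per Mb 300 to 200 bp upstream. The lowest density was in the first 100 bp downstream, with 14 summits and 42.8 per Mb. The replicates had 23, 18 and 18 summits there, or 70.4, 55.1 and 55.1 per Mb, against 58.3, 60.1 and 61.4 per Mb for sequence away from every start. Replicate 1 was above that level there and the other replicates below it.

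Farther downstream the density rose again, to 113 per Mb at 300 to 400 bp and 125 per Mb at 400 to 500 bp (replicates 113 ± 10.9 and 127 ± 5.63, SD). That is the last bin before the 500-bp limit, so a second maximum cannot be placed there. At the opposite edge, 500 to 400 bp upstream, the density was 78.3 per Mb (124, 90.7 and 115 in the replicates). Between 300 and 500 bp downstream of the noncoding start lay 65 of the 290 summits (22.4%, 18.0 to 27.6). That interval makes up 19.4% of the qualifying bases, so the share of summits was near the share of sequence. The share of summits was 20.8, 22.3 and 21.5% in the replicates, against 5.13% ± 0.251 at protein-coding starts (difference 16.4 ± 0.909 points, exact permutation p = 0.25). In the 300 bp just upstream, 31.0% of the qualifying bases, the order was reversed. There lay 42.0% ± 1.80 of summits at noncoding starts and 62.3% ± 2.01 at protein-coding starts (difference −20.3 ± 1.00 points, exact permutation p = 0.25). The shares of bases in these intervals were likewise not computed for protein-coding starts. CR45424, CR44619 and CR44676 of the strongest sites lay 300 to 500 bp downstream. Of the 65 summits there, 40 were still inside the noncoding gene and 25 were beyond its last base.

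Taken over all members, 166 summits lay before the first base of the noncoding gene, at 125 per Mb, 96 inside it, at 81.9 per Mb, and 28 beyond its last base, at 90.9 per Mb. In the replicates these densities were 128 ± 2.42, 89.0 ± 7.26 and 92.0 ± 1.87 per Mb (SD). The sequence before the gene was the densest in each replicate, and the inside and beyond values overlapped. Signal differed little with side: the median was 583 upstream and 519 downstream, and the upstream to downstream ratio was 1.21, 1.16 and 1.12 in the replicates.

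**Figure D3:**
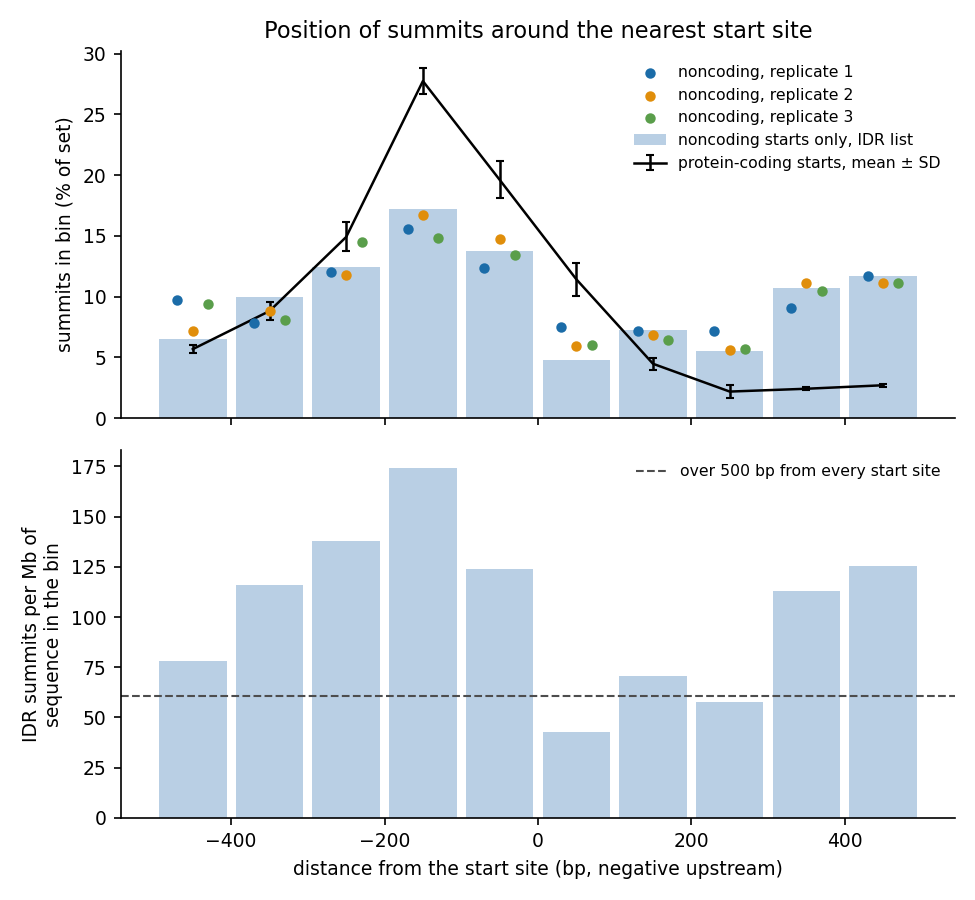
Distance of summits from the nearest start site in 100-bp bins (horizontal axis, negative upstream). Top, percentage of summits in each bin for noncoding starts only (bars IDR list, points replicates) and for protein-coding starts (line, mean ± SD of 3 replicates); bottom, IDR summits at noncoding starts per Mb of the bin's sequence, with a dashed line at the 60.9 per Mb of sequence away from every start. Noncoding starts have a maximum of 174 per Mb upstream and a rise to 125 per Mb at 400 to 500 bp downstream, the last bin before the limit.

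The strength of these summits was close to that at protein-coding starts. Their median signal was 555 (quartiles 351 and 1207, range 246 to 8853), and the ratio to the median at protein-coding starts was 0.980, 1.10 and 0.968 in replicates 1, 2 and 3 (1.01 ± 0.0706, exact permutation p = 1). Against summits away from every start the ratio was 1.03, 1.14 and 1.09 (1.09 ± 0.0532, exact permutation p = 0.25). Among the 1023 strongest IDR peaks, 37 were members, or 12.8% of members against 9.99% of all IDR peaks. The replicate values were 12.4% ± 0.538 for members, 13.5% ± 0.891 for protein-coding starts and 8.40% ± 0.274 away from starts.

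Repeatability was also near that of the whole list. Strong peaks of all 3 replicates overlapped 230 of the 290 members (79.3%, 74.3 to 83.6), against 78.3% of all IDR peaks. Another 48 were overlapped in 2 replicates and 12 in only 1. The median signal was 730 for those held by all 3 and 291 for the rest. Since only the strongest peaks of each replicate count, weak peaks are lost by that rule, and the split was alike at protein-coding starts (725 and 293) and away from starts (635 and 285). For the typical member the SD of relative signal over replicates was 15.9% of its mean (quartiles 11.3 and 24.0%). The median absolute difference between replicates was 0.33 on the log2 scale for replicates 1 and 2, 0.24 for 1 and 3, and 0.29 for 2 and 3. Where a single replicate peak overlapped neighbouring members, they share its value, and 92 members (31.7%) lay within 5000 bp of another member.

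By chromosome arm, 73 members were on 3L, 70 on 2L, 60 on 3R, 55 on 2R, 31 on X and 1 on 4. Per Mb of qualifying sequence 3L had the highest density in each replicate (130 ± 6.77). Those of 2L (107 ± 9.35), 2R (110 ± 12.9) and 3R (100.8 ± 3.26) overlapped. X (96.0, 80.0 and 96.0 per Mb) overlapped 2R, whose replicate 3 was at 94.8, and lay just under the lowest replicates of 2L (96.4) and 3R (97.2). These differences between arms were not tested.

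All members together were A/T-rich at the summit. The windows of 50 bases to either side held 68.3% A or T on average (SD over members 9.05), against 54.1% in windows 300 bp to either side and 58.1% over all qualifying sequence. The summit window exceeded its own flanks in 242 of 290 members, a share close to the 85.0% of all IDR summits, whose mean content was 68.2%. In 13 members it was below 50%. Over replicates the summit content was 67.3% ± 0.435 and the flank content 54.6% ± 0.454. It was higher than at protein-coding starts by 1.50, 1.62 and 1.03 percentage points (1.38 ± 0.310, exact permutation p = 0.25), and lower than at summits away from starts by 0.882, 1.66 and 1.22 points (difference −1.25 ± 0.390, exact permutation p = 0.25). In the IDR list the differences were 1.96 and −0.678 points. The first was 0.34 in the stronger 50% of peaks, and the second turned to 0.122 when starts reached to 1000 bp. The 20 strongest members had 70.4% ± 7.37 A or T, SD over members, and the 20 weakest 62.9%, running from 43.6 to 78.2%.

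**Figure D4:**
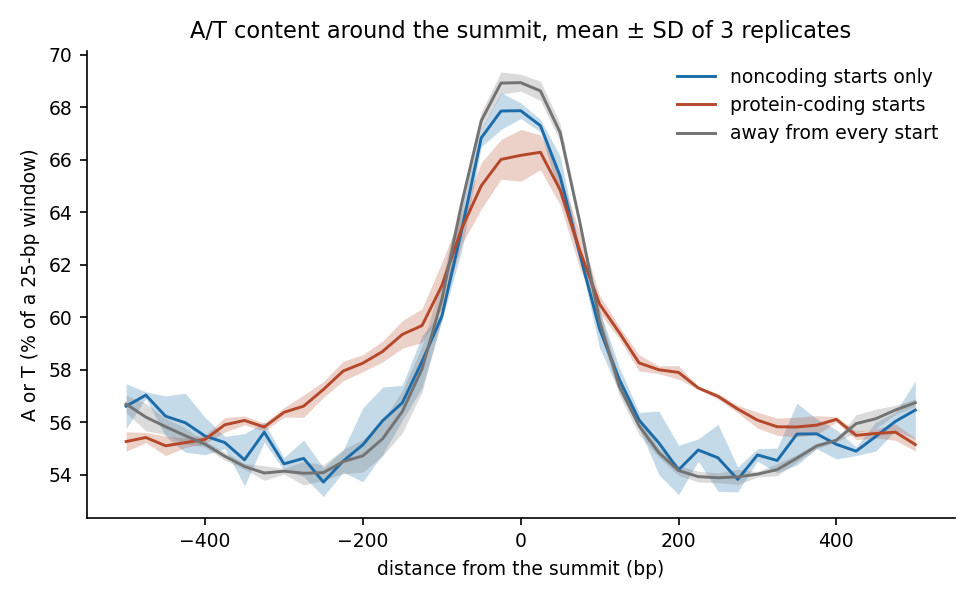
A/T content (vertical axis, percent of a 25-bp window) against distance from the summit for summits at noncoding starts only, at protein-coding starts and away from every start; lines are means and bands SDs of 3 replicates. The noncoding starts peak at 67.9% at the summit, between the other 2 sets, and return to the flank level within 200 bp.

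The TATA-box word TATAAA was in 54 of the 290 summit windows (18.6%), against 8.45% of their flank windows and 25.1% of all IDR windows. The replicates gave 20.8% ± 0.223 at summits and 8.73% ± 0.301 in flanks (exact permutation p = 0.25). Windows of this length centred on noncoding starts themselves held it in 13.1%. Searched as exact letters on both strands, 3 further A/T words chosen after the sequences at these peaks had been examined are given as descriptions. AAAATAT was in 62 windows (21.4%, flanks 4.66%, all IDR windows 17.6%), TTAAAAA in 47 (16.2%, flanks 3.10%, all 16.2%) and TACTTAA in 27 (9.31%, replicates 7.04% ± 0.481, flanks 1.21%, all 4.39%). At least 1 of the 4 words was in 139 windows (47.9%, flanks 14.5%, all 47.3%), and in 24.5% of windows at noncoding starts. Differences between the members and the whole list were not tested.

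Some words that contain G or C were rarer at the summits than beside them. Summit windows held 68.3% A or T against 54.1% in the flanks. The part of that base composition in these differences, and in those of the A/T words above, was not tested. GAGAG, part of the site of GAGA factor, was in 7.59% of windows and 15.9% of flanks (all IDR windows 9.63%), and the E-box CAGCTG in 2 of 290 windows and 29 of 580 flank windows (all 2.27%). The replicates gave 10.3% ± 2.67 against 15.3% ± 1.30 for GAGAG and 1.10% ± 0.825 against 4.99% ± 1.02 for CAGCTG (exact permutation p = 0.25 for each). The core promoter words GGTCACA and TATCGATA, common at broadly expressed fly genes, were in 1 and 0 windows (all IDR windows 0.947% and 0.508%). The initiator core TCAGT was in 16.9% of windows, 11.9% of flanks and 16.3% of all IDR windows, and CGATA was in 10.3%, 10.5% and 11.1%. The rest of the 16 words first searched were each in few windows, apart from runs of 8 A. Those runs were in 28 windows (9.66%, flanks 6.55%, all IDR windows 10.5%). CACACACA was in 3 (1.03%, flanks 4.31%, all 1.36%) and AGGTCA in 2 (0.690%, flanks 2.07%, all 1.82%). CACGTG was in 4 (1.38%, flanks 1.38%, all 0.391%) and TGANTCA in 8 (2.76%, flanks 2.59%, all 2.63%). CAGGTAG was in 1 (0.345%, flanks 1.03%, all 0.273%). TATATATA and AATTAATT were each in 4 windows (1.38%, flanks 0.690%, all 2.71% and 1.99%).

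Near the limit of the rule, the members farthest from a noncoding start were at CR43410 (497 bp, signal 283), CR34044 (493 bp, 1098) and CR44619 (493 bp, 8833). Just outside were summits near CR44868 (501 bp, 329), CR44409 (503 bp, 7373) and CR45998 (505 bp, 485). The members closest to a protein-coding start were at CR44200 (513 bp, 284), CR43817 (516 bp, 469) and asRNA:CR44429 (538 bp, 2301). Excluded for a protein-coding start within the limit were those at asRNA:CR45889 (488 bp, 494), asRNA:CR45714 (474 bp, 308) and CR45618 (472 bp, 2924). Strong and weak summits thus stood on both sides of either limit.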

How the data were processed

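ChIP-seq peak lists of 3 replicates, of the replicates pooled, and of peaks retained by IDR were used as the authors deposited them, on dm6 and against 1 control alignment per the file lists. Caller, aligner and read filters: not given in the sources used here. The authors' deposited signal per peak (scales differ between lists) was used within lists or divided by the list's median. Their deposited −log10 q-value was not used. The deposited summit offset, another column, gave each summit. The lists give no read numbers.

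Genes came from Ensembl release 115 (transposable elements left out), sequence from the RefSeq release 6 assembly, limited to 6 arms. Ensembl's separate entries for mature microRNAs counted as noncoding genes. Replicates were compared through their 10239 strongest of 30000 peaks, with overlaps of at least 1 bp. Available sequence was every base that would have met the rule as a summit. Differences over replicates were tested with exact 2-sided sign flips in SciPy 1.17.1. Shares carry 95% Wilson intervals. The classification, overlap and word steps were tested on simulated data. Words were exact letters on both strands of windows running 50 bases to either side of the summit.

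Named sites were the 20 strongest members, the 4 strongest of each class other than lncRNA, fixed lists, and the 3 members on either side of each limit. The members, words and lists were chosen with earlier results of these data known. Alternatives were other distances (250 and 1000 bp), start sites, peak subsets, windows and overlaps, each replicate left out, and 2 chosen after seeing the data.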

Additional observations from a re-analysis of the deposited data

How the results depend on the processing

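Of 123 alternative values of 10 results, 80 stayed near the reported value. Near meant within the spread between replicates or, for counts of genes, within a wider margin of the reported count. The share of members held by all replicates has no value per replicate, so that spread did not apply to it. Among these 80, the count of occupied noncoding genes fell from 462 to 358 in peaks held by all 3 replicates. It was 384, 386 and 386 with replicates 1, 2 and 3 left out, drops larger than the SD over replicates of 12.9. At 250 bp there were 186 members (1.82% of peaks), with 71.4% upstream (difference from protein-coding starts −4.60 points), 30.1% inside protein-coding genes, an A/T difference of −1.43 to summits away from starts, and 260 noncoding genes occupied. At 1000 bp there were 491 members (4.80%), with 50.8% upstream (difference −19.5), 31.0% inside protein-coding genes, an A/T difference of 2.72 to protein-coding starts and 824 genes occupied. The A/T difference to summits away from starts changed sign there, to 0.122, and the cause was not tested. With a single start per gene, the share was 3.03%, the upstream difference −13.1, the A/T difference to protein-coding starts 1.43 and the share inside protein-coding genes 35.5%.

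In the stronger 50% of the IDR peaks the member share was 3.03%, 63.6% were upstream (difference −19.4), the signal ratio to summits away from starts was 1.16, the A/T differences were 0.34 to protein-coding starts and −0.0701 to summits away from starts, 99.4% were held by all replicates, and 250 genes were occupied. Peaks held by all 3 replicates gave a signal ratio of 1.15, an upstream difference of −19.0 and an A/T difference of 1.55 to protein-coding starts. With each replicate left out in turn, the values ran from 2.84 to 2.90% for the share, 1.13 to 1.16 for the signal ratio, −18.7 to −18.2 for the upstream difference, 1.49 to 2.01 and −0.656 to −0.188 for the A/T differences to protein-coding starts and to summits away from them, and 83.8 to 85.5% for members held by both other replicates.

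Members held by all 3 replicates were 46.6% with a shorter list of strongest peaks, 98.3% with a longer one and 72.4% when the overlap had to cover 50% of the peak. Counting the strongest summit per noncoding gene, chosen after seeing the data, gave a share of 2.65%. The upstream difference and the A/T difference to protein-coding starts kept their sign in every alternative. Depth is unknown, so the IDR list sets what counts as a site: the pooled list held 585 further summits that meet the rule.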
